A study of Mus musculus with 10 samples.

Results

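The genes described here are 10 named mouse genes of red cell development, measured in granulocyte-monocyte progenitors (GMPs) sorted from bone marrow. They were given as a list of names, set with earlier results of these data known, and they stand among 51717 annotated genes whose reads were summed. They are the adult alpha globins Hba-a1 and Hba-a2, the adult beta globins Hbb-bs and Hbb-bt, the regulators Gata1, Klf1 and Epor, and Car1, Car2 and Slc4a1, which encode enzymes and a membrane transporter. In all, 9 of the 10 had enough reads to be tested, and Slc4a1 did not.

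GMPs came from 5 WT samples, ROSA26 CreER+/-, and 5 Mpc2 KO samples, Mpc2fl/fl with ROSA26 CreER+/-. All donors were male on a C57Bl6/N background, and both groups ate tamoxifen chow for 2 wk, so the controls carried Cre and received the drug as well. ROSA26 CreER acts in every donor cell type, so the deletion was not limited to GMPs. The donor marrow had been placed with competitor marrow in irradiated CD45.1 hosts, donor GMPs were sorted after enrichment on CD27 with red cells lysed beforehand. Mice were pooled for the KO samples and not for the WT samples, so pooling and genotype cannot be told apart.

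GMPs normally give rise to granulocytes and monocytes and are not the progenitors of red cells. In the erythroid lineage, the transcription factors GATA1 and KLF1 switch on the globin genes, and erythropoietin acting through its receptor, encoded by Epor, keeps the progenitors alive. Globin mRNA becomes the most abundant mRNA of a maturing red cell, while genes of the membrane and its skeleton such as Slc4a1 mark the late stages.

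Stretches of 30 bases from RefSeq promoter windows (GRCm38.p6) are shown as a description of these genes. Whether the motifs bear on the globin levels of these samples was not tested. Capitals mark matches, on either strand, to a GATA motif (the letters AGATAA or the letters AGATAG, or either with T as the first base), to CACCC, to which KLF1 and related factors can bind, or to CCAAT, and adjoining matches run together. A promoter window was found for 7 of the 10 genes.
Hba-a2 GATA region, chr11:32296297-32296326, plus strand: ccgggcaacTGATAAggattccctgCACCC
Hba-a2 CCAAT region, chr11:32296392-32296421, plus strand: acaaaccagCCAATgagaactgctccaagg
Hbb-bs, chr7:103827994-103828023, minus strand: agccaCACCCtggtaagggCCAATctgctc
Hbb-bt, chr7:103813989-103814018, minus strand: gggtaaCACCCtggcATTGGCCAATctgct
Klf1, chr8:84901887-84901916, plus strand: tgctttgcctgggtcTTATCAgggaagaca
Epor, chr9:21963617-21963646, minus strand: ccttggtggctgtagcTTATCTgtccccag

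In the whole stretch of each window before the start, a GATA match was found for Hba-a1, Hba-a2, Hbb-bs, Klf1 and Epor, and none was found for Hbb-bt or Gata1. Of 32851 promoter such windows, 26.5% held a GATA match, 52.0% held CACCC and 33.8% held CCAAT. The Hba-a1 and Hba-a2 promoters matched at 197 of 197 aligned bases, and their longest coding mRNAs were 99.8% identical. Hbb-bs and Hbb-bt mRNAs were 93.1% identical. The alpha copies are therefore given mainly as a sum, and values of single copies are uncertain.

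The libraries held 14133706 to 19745405 estimated reads in WT and 14033776 to 19658346 in Mpc2 KO. Mpc2, the deleted gene, was lower in every KO library than in every WT library. Its level was 61.0, 111, 95.2, 117 and 60.9 CPM in WT replicates 1 to 5 and 27.7, 17.1, 43.9, 37.0 and 35.0 CPM in KO replicates 1 to 5. CPM are read counts scaled to library size, adjusted by edgeR's TMM factors over the genes kept by the filter for low counts. The GMP markers Mpo, Elane, Prtn3 and Ctsg were the abundant markers in both groups, with mean Elane at 27250 TPM (a level scaled to transcript length) in WT and 18260 TPM in KO.

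The adult globins were on average about 4 times as high in Mpc2 KO as in WT GMPs, but the difference came from KO replicates 3, 4 and 5, and no globin passed the test across all genes. Summed Hba was 9.13, 53.9, 50.9, 28.6 and 23.2 TPM in WT replicates 1 to 5. It was 26.7, 42.2, 292, 183 and 162 TPM in KO replicates 1 to 5. KO replicates 3 to 5 lay above every WT sample, and KO replicates 1 and 2 lay inside the WT range. In bulk RNA, more cells of a type and more RNA per cell cannot be told apart.

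Summed Hbb, the beta chains that pair with alpha chains in hemoglobin, was 9.69, 31.6, 35.1, 17.6 and 20.98 TPM in WT. It was 20.3, 27.1, 187, 133 and 116 TPM in KO. The same 3 KO samples were high, in the same order as for Hba. As a multiple of the WT mean CPM, KO replicates 1 and 2 held 0.867 and 1.08 of the Hba level, and KO replicates 3, 4 and 5 held 8.34, 5.30 and 4.68. All 4 globins together took 0.000694% to 0.00372% of reads in WT and 0.00218% to 0.0209% in KO.

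**Figure D1:**
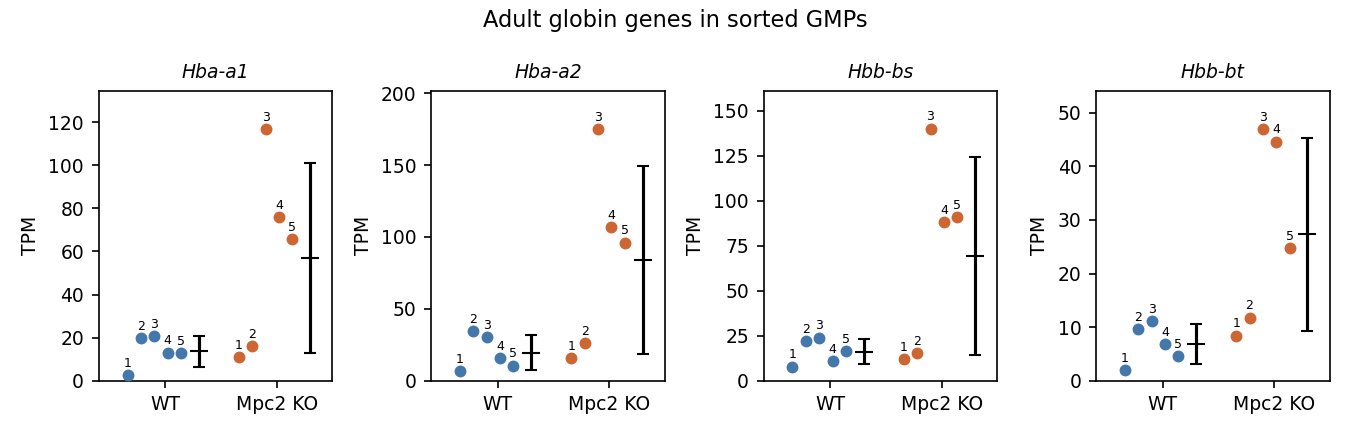
TPM of each adult globin gene in the 5 WT and 5 Mpc2 KO samples, numbered by replicate, with the group mean and SD as a black bar. KO replicates 3, 4 and 5 stand above all WT samples for each gene, while KO replicates 1 and 2 sit near the WT samples.

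With edgeR's quasi-likelihood test and Benjamini-Hochberg adjustment over the 12379 genes of the fit with copies summed, the log2 fold change of summed Hba was 2.03 (SE 0.60, adjusted p = 0.223) and that of summed Hbb was 2.03 (SE 0.54, adjusted p = 0.188). In the fit of 12381 genes with the copies apart, log2 fold changes were 2.01 for Hba-a1, 2.07 for Hba-a2, 2.08 for Hbb-bs and 1.95 for Hbb-bt. Their adjusted p-values from edgeR lay between 0.176 and 0.236. Hba-a1 held 51.2% ± 10.04 (SD, n = 5) of Hba reads in WT and 50.6% ± 1.23 (SD, n = 5) in KO.

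The call on the globins depended on the filter for low counts. Without it, the edgeR adjusted p was 0.000477 for summed Hba and 0.000138 for summed Hbb, at nearly the same fold change (log2 2.04 for each). The SE was smaller, at 0.35 for Hba and 0.32 for Hbb, against 0.60 and 0.54 with the filter. A two-sided exact permutation test on TPM, which uses no such filter, gave unadjusted p = 0.0873 for each sum. The same test on CPM, whose scaling uses the genes kept by the filter, gave the same p. Leaving out KO replicate 3 lowered the log2 fold change of summed Hba to 1.59 (edgeR adjusted p = 0.498), and leaving out KO replicate 2 gave an edgeR adjusted p of 0.0994 for Hba and 0.0518 for Hbb.

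Among the regulators, Gata1, the factor required for red cell, megakaryocyte, mast cell and eosinophil development, was present in every library. It measured 2.81, 4.40, 3.98, 0.915 and 1.83 TPM in WT replicates 1 to 5 and 1.65, 2.39, 4.67, 7.82 and 5.02 TPM in KO replicates 1 to 5. KO replicates 3 to 5 were again the highest, but WT replicates 2 and 3 came close to them. The log2 fold change was 0.66 (SE 0.39, edgeR adjusted p = 0.602).

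Epor, the erythropoietin receptor, was near the limit of detection, with 2 to 12 reads per library in WT and 2 to 23 in KO. Its level was 0.0650 to 0.729 TPM in WT and 0.0790 to 0.621 TPM in KO, so the groups overlapped throughout. The log2 fold change was 0.69 (SE 0.52, edgeR adjusted p = 0.719).

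Klf1, the activator of adult beta globin, is the member whose values are least certain. Its matched transcript held 24, 16, 0, 10 and 12 reads in WT replicates 1 to 5 and 0, 14, 0, 43 and 60 reads in KO replicates 1 to 5. The zeros cannot be read as absence. A transcript of 1534 bases that the annotation used here does not match to any gene held 37, 21 and 48 reads in WT replicate 3, KO replicate 1 and KO replicate 3, and none in the other 7 libraries. It was the only such transcript among 3628 unmatched ones, and Klf1 was the only gene with the complementary pattern, but its gene is not named in the sources used here.

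Both versions of Klf1 overlapped between groups. From the matched transcript the log2 fold change was 0.91 (SE 0.91, edgeR adjusted p = 0.814). With the unmatched transcript added, an alternative chosen after seeing the data, the level was 0.448 to 1.27 TPM in WT and 0.659 to 2.02 TPM in KO. KO replicates 3 to 5 then lay above every WT sample, and the log2 fold change was 0.87 (SE 0.37, edgeR adjusted p = 0.439).

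Car2 and Car1 encode carbonic anhydrases, enzymes that interconvert carbon dioxide and bicarbonate. Car2 measured 27.9, 33.4, 23.6, 13.2 and 24.8 TPM in WT replicates 1 to 5 and 27.7, 23.2, 59.8, 53.4 and 44.6 TPM in KO replicates 1 to 5. Here too KO replicates 3 to 5 lay above every WT sample and KO replicates 1 and 2 within the WT range. The log2 fold change was 0.69 (SE 0.21, edgeR adjusted p = 0.251).

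Car1 was lower, at 0.871, 1.88, 1.51, 0.376 and 0.378 TPM in WT and 0.956, 0.653, 5.12, 3.88 and 3.72 TPM in KO. Its 3 high samples were the same KO replicates. The log2 fold change was 1.52 (SE 0.54, edgeR adjusted p = 0.346). Without the filter on low counts, the edgeR adjusted p was 0.0492 for Car1 and 0.00612 for Car2, with smaller SEs of 0.39 and 0.14.

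Slc4a1, which encodes the anion exchanger band 3 of the red cell membrane, was at or near 0 in all samples. It held 0 to 6 reads in WT and 0 to 8 in KO. KO replicates 3, 4 and 5, with the most globin, held 2, 1 and 0 Slc4a1 reads, and the highest count was in KO replicate 2. No difference was detectable at this depth.

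**Figure D2:**
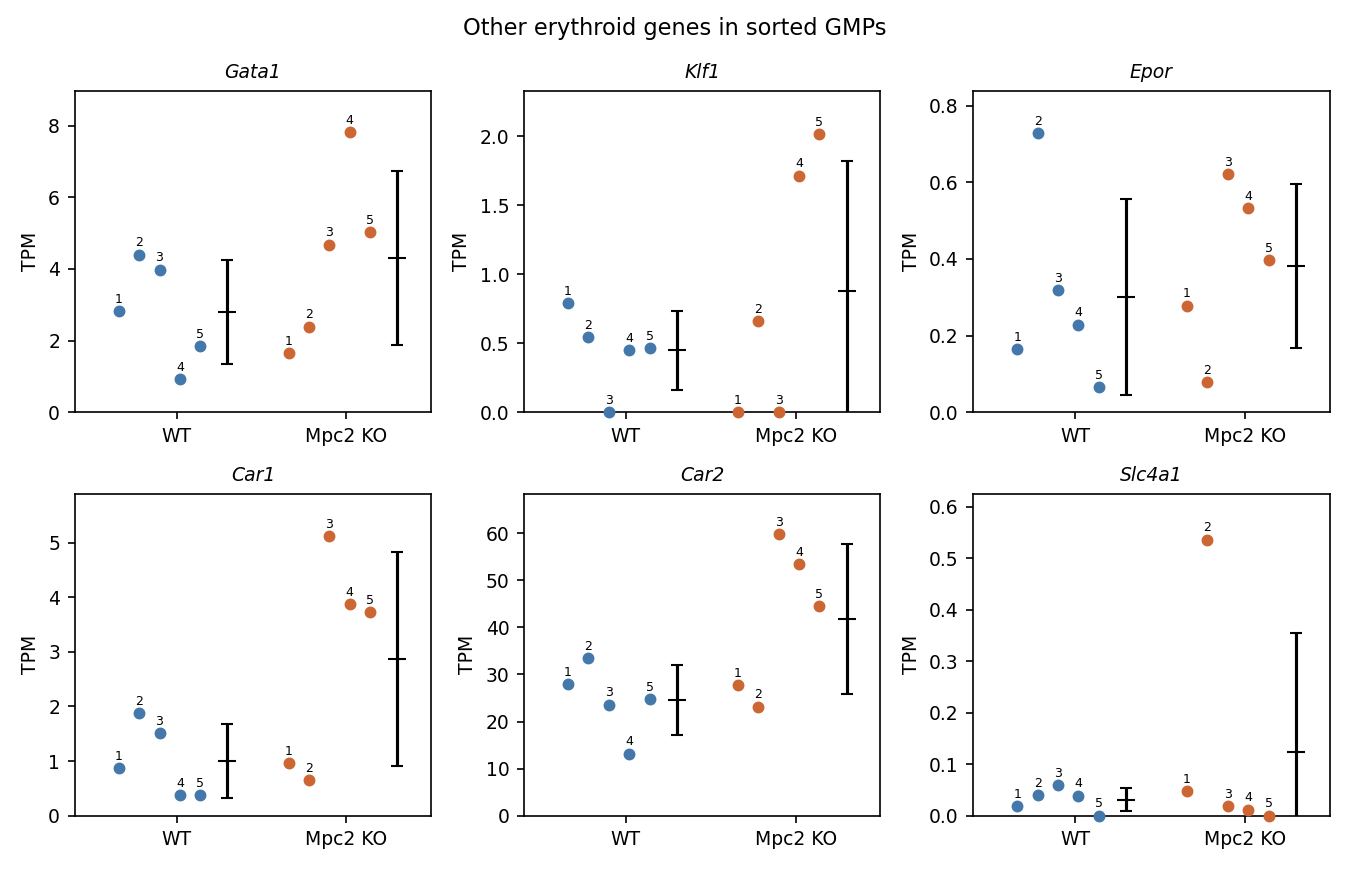
TPM of the other 6 genes in each WT and Mpc2 KO sample, numbered by replicate, with the group mean and SD as a black bar, drawn only down to 0. Car1, Car2 and Gata1 are highest in KO replicates 3, 4 and 5, Slc4a1 is not, and the points of Klf1 at 0 carry the uncertainty given for that gene.

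Of the 9 members tested, 0 passed an adjusted p of 0.05 in edgeR, against 0.331% of all genes tested. At an unadjusted edgeR p below 0.05, 6 of 9 were higher in KO, namely the 4 globins, Car1 and Car2, against 4.89% of all genes. No member had every KO sample above every WT sample, against 1.11% of all genes. DESeq2 also called 0 of 9, and edgeR without the filter called 6 of 10, against 0.738% of the 27909 genes tested in that setting. The median log2 fold change was 2.04 over the 4 globins and 0.69 over the 3 regulators, against -0.0018 over all genes tested. The regulator median is the value of Epor, a gene near the limit of detection, which was 0.37 with a transcript length offset. The globins are pairs of similar copies, so their values are not independent.

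**Figure D3:**
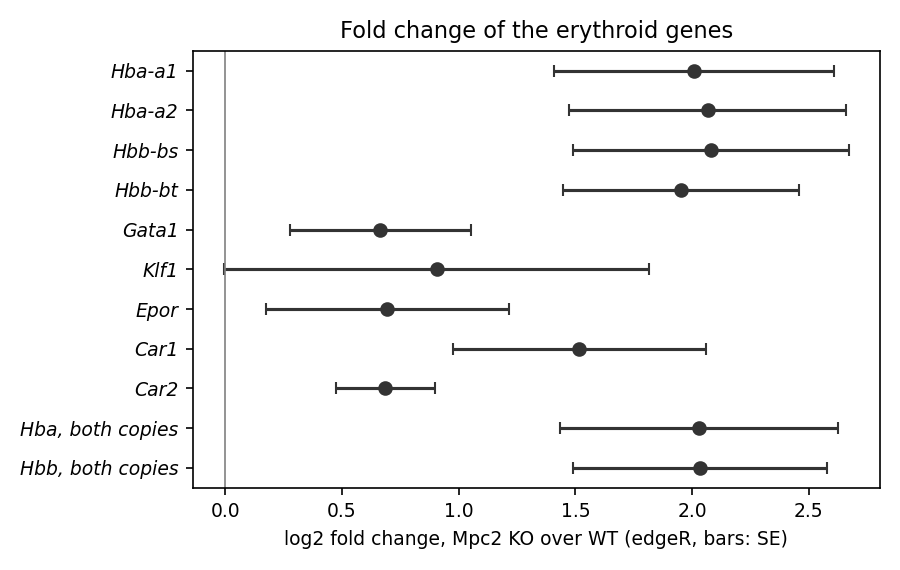
edgeR log2 fold changes of the 9 tested genes and of the summed alpha and beta globin copies, Mpc2 KO over WT, with standard errors as bars. The globins lie near 2, Car1 at 1.52, and Gata1, Epor and Car2 between 0.66 and 0.69.

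Set in order of mean TPM, Car2 led in WT at 24.6 ± 7.43 (SD, n = 5), followed by Hba-a2 at 19.5 ± 12.2, Hbb-bs at 16.2 ± 6.96, Hba-a1 at 13.7 ± 7.25 and Hbb-bt at 6.81 ± 3.73. Then came Gata1, Car1, Klf1, Epor and Slc4a1. Each gene's range overlapped that of its neighbor in this order except for Epor and Slc4a1. In KO, Hba-a2, Hbb-bs and Hba-a1 stood above Car2, though their ranges overlapped, and only Hbb-bt and Gata1 were neighbors with separate ranges. The order of the 2 alpha copies depends on the unit, as TPM is scaled to length and their annotated mRNAs have 699 (Hba-a1) and 554 (Hba-a2) bases. In mean CPM, Hba-a1 was the higher, at 7.33 against 6.78 in WT and 29.1 against 28.1 in KO.

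The globins were next compared with the regulators within each sample, as the log2 ratio of TPM. The ratio of summed Hba to Gata1 was 3.52 ± 1.17 in WT and 4.74 ± 0.79 in KO (SD, n = 5 each), a difference of 1.21 (two-sided exact permutation p = 0.0794, adjusted p = 0.131 over 3 ratios). Hba to Epor was 6.95 ± 1.04 in WT and 8.32 ± 1.00 in KO (SD, n = 5 each), a difference of 1.37 (two-sided exact permutation p = 0.0873, adjusted p = 0.131). Neither passed the threshold, and the smallest p this design allows is 0.00794.

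The highest Hba to Gata1 ratio was 5.97 in KO replicate 3, and the lowest was 1.70 in WT replicate 1. KO replicates 1 and 2, whose globin levels were within the WT range, had ratios of 4.02 and 4.14, above 4 of the 5 WT samples. WT replicate 4 had a ratio of 4.97, with only 23 Gata1 reads. Without it, the difference in Hba to Gata1 was 1.57 (two-sided exact permutation p = 0.0159, adjusted p = 0.0476 over 3 ratios). Without WT replicate 1 it was 0.76 (two-sided exact permutation adjusted p = 0.238). The design named 4 ratios, and adjustment over 4 was not run for these fits. Each of the other 8 samples left out in turn gave a difference of 0.91 to 1.39 and no call.

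Alpha and beta globin kept a similar ratio. Log2 Hba to Hbb was 0.41 ± 0.37 in WT and 0.52 ± 0.11 in KO (SD, n = 5 each), with a two-sided exact permutation p of 0.548. Hba to Klf1 could not be formed from the matched transcript, which was at 0 in 3 libraries. With the unmatched transcript added, it was 5.43 ± 1.16 in WT and 6.32 ± 0.96 in KO (SD, n = 5 each; two-sided exact permutation p = 0.230, adjusted p = 0.307 over 4 ratios).

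**Figure D4:**
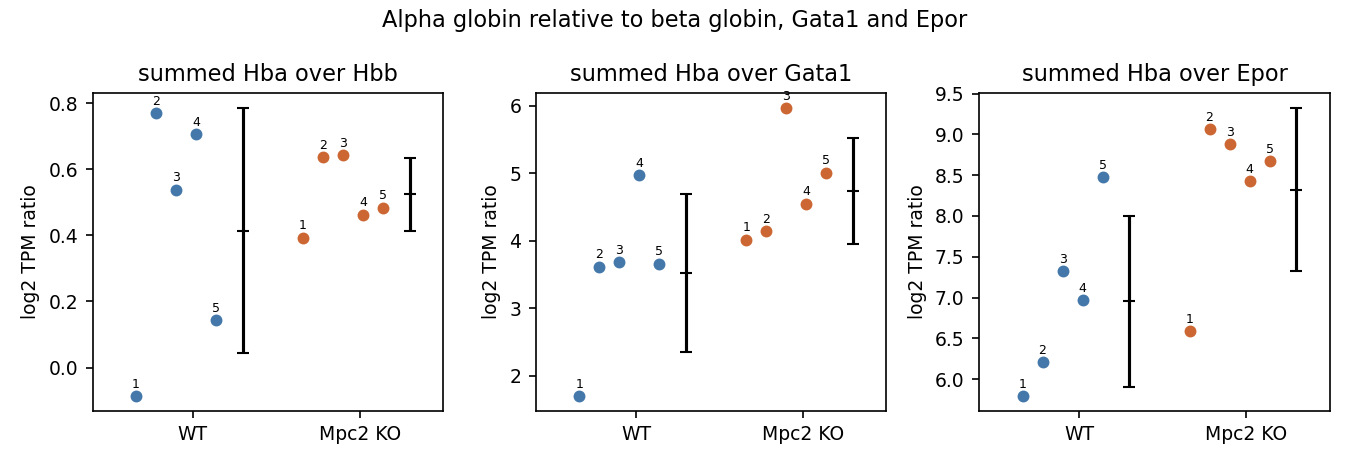
Log2 TPM ratio of summed Hba to summed Hbb, to Gata1 and to Epor in each sample, numbered by replicate, with the group mean and SD as a black bar. Hba to Hbb overlaps fully, and the KO means of the other ratios are higher by 1.21 and 1.37 with overlapping samples.

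Across samples, summed Hba fell into 7 lower and 3 higher libraries with a gap from 22.6 to 66.1 CPM, so no correlation over all 10 was computed for testing. The 7 were chosen on Hba after its values were seen. They hold all WT samples and KO replicates 1 and 2, without centring on the group means. Their p-values apply to this narrower range of Hba only, and a low r within it does not describe all 10 samples. Within the 7 lower libraries, on log2(CPM + 0.5), Hba followed Hbb (Pearson r = 0.97, exact permutation p = 0.00238, adjusted p = 0.0167 over 7 relations; Spearman rho = 0.89, exact permutation p = 0.0123, adjusted p = 0.0861). Without the 2 libraries farthest from the median of Hba, r with Hbb was 0.87. For Gata1, Epor, Car1, Car2 and Slc4a1, r lay between 0.041 and 0.54, with exact permutation adjusted p-values of 0.574 to 0.890. Without the same 2 libraries, r was 0.81 for Car1, 0.65 for Gata1, 0.60 for Epor, 0.47 for Slc4a1 and 0.10 for Car2. On CPM, the distance between Hbb and Car1, Gata1 or Epor thus rests largely on those libraries. On log2(TPM + 0.1), r without the 2 farthest libraries was 0.89 for Hbb, 0.74 for Gata1 and 0.70 for Car1. For Epor it was 0.29, against 0.44 in all 7, so the distance for Epor depends on the unit. For Klf1, r on log2(CPM + 0.5) in all 7 was -0.42 from the matched transcript and 0.18 with the unmatched one added (exact permutation p = 0.327 and 0.668).

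As a description over all 10 samples, the genes most like summed Hba by Pearson r were Hbb-bt (0.98), Hbb-bs (0.96), Smim15 (0.96), Crip2 (0.90) and Dph6 (0.90), out of 9737 with a mean of at least 50 reads. For Gata1 they were Dusp6 (0.98), Tbc1d9b (0.94), Gata2 (0.93), Fbxw7 (0.93) and Dtnb (0.93). For Car2 they were Angpt1 (0.98), Dmwd (0.98), Ctla2a (0.97), Nrgn (0.97) and Vamp5 (0.96). Gata2, which encodes a related GATA factor, was 1.24 to 4.37 TPM in WT and 3.55 to 8.18 TPM in KO, and KO replicates 3 to 5 held its highest levels.

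No further erythroid gene passed the test. Of 69 further erythroid genes, 45 were tested and 0 passed an adjusted p of 0.05 in edgeR; at an unadjusted p below 0.05, 7 were higher and 5 lower in KO, against 4.89% higher and 5.35% lower over all genes tested. The median log2 fold change over the 45 was 0.06. Of 13 transcription factors, 6 were higher at an unadjusted p below 0.05 (Gata2, Tal1, Gfi1b, Zfpm1, Sox6 and Hemgn) and Myb was lower, against the same 4.89% and 5.35% of all genes. Gfi1b, a repressor needed in red cell and megakaryocyte development, was 0.408 to 2.81 TPM in WT and 1.31 to 3.47 TPM in KO (log2 fold change 1.23, SE 0.33, edgeR adjusted p = 0.186).

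Heme synthesis and iron uptake had 14 tested genes, of which 0 were higher and 4 lower at an unadjusted p below 0.05 (Uros, Cpox, Ppox and Tfrc), against 4.89% and 5.35% of all genes. Alas2, the erythroid enzyme that starts heme synthesis, was at most 0.921 TPM in WT and 0.547 TPM in KO. Of 20 membrane and skeleton genes, 16 had a mean below 1 TPM. All 6 embryonic and minor globins analysed held at most 3 reads in every library.

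Some marker lists of other cell types also differed in level between the groups. The summed level of 14 GMP markers was 65100 to 85140 TPM in WT and 38540 to 70230 TPM in KO, with overlapping ranges, and was lowest in KO replicate 3. Of the 14, 10 were lower at an unadjusted edgeR p below 0.05, against 5.35% of all genes, but 0 passed an adjusted p of 0.05. The 12 marrow macrophage markers summed to 14.1 to 28.9 TPM in WT and 32.8 to 64.5 TPM in KO. Their sum was highest in KO replicate 2, which was not high in globin. Of the 12, 3 passed the edgeR test (C1qa, C1qb and C1qc), against 0.331% of all genes tested. At an unadjusted edgeR p below 0.05, 7 were higher in KO and 0 lower, against 4.89% and 5.35% of all genes. The log2 fold change was above 0 for 11, but only 0.02 for Cd163, 0.07 for Slc40a1 and 0.18 for Vcam1. Adgre1 was lower in KO, at -0.39. The 13 megakaryocyte and platelet markers summed to 11.8 to 20.5 TPM in WT and 26.9 to 46.0 TPM in KO. Pf4 made up the largest part, at 2.91 to 12.3 TPM in WT and 16.0 to 32.6 TPM in KO, while Ppbp was at most 0.210 TPM. Of the 13, 10 had a mean below 1 TPM, and only 4 were tested. Of these 4, 0 passed an adjusted p of 0.05 in edgeR. At an unadjusted edgeR p below 0.05, 3 were higher in KO (Pf4, Itga2b and Gp9), against 4.89% of all genes. Itgb3, the other tested gene, had a log2 fold change of -0.04. The sums of basophil, mast cell and eosinophil markers (12 genes, 238 to 692 TPM in WT and 348 to 534 TPM in KO) and lymphocyte markers (10 genes, 42.5 to 57.8 and 43.7 to 58.5 TPM) overlapped between groups. Within the basophil, mast cell and eosinophil list, 10 genes were tested and 0 passed an adjusted p of 0.05 in edgeR. At an unadjusted edgeR p below 0.05, 1 was higher (Mcpt8) and 3 were lower (Prss34, Epx and Prg2), against 4.89% and 5.35% of all genes.

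**Figure D5:**
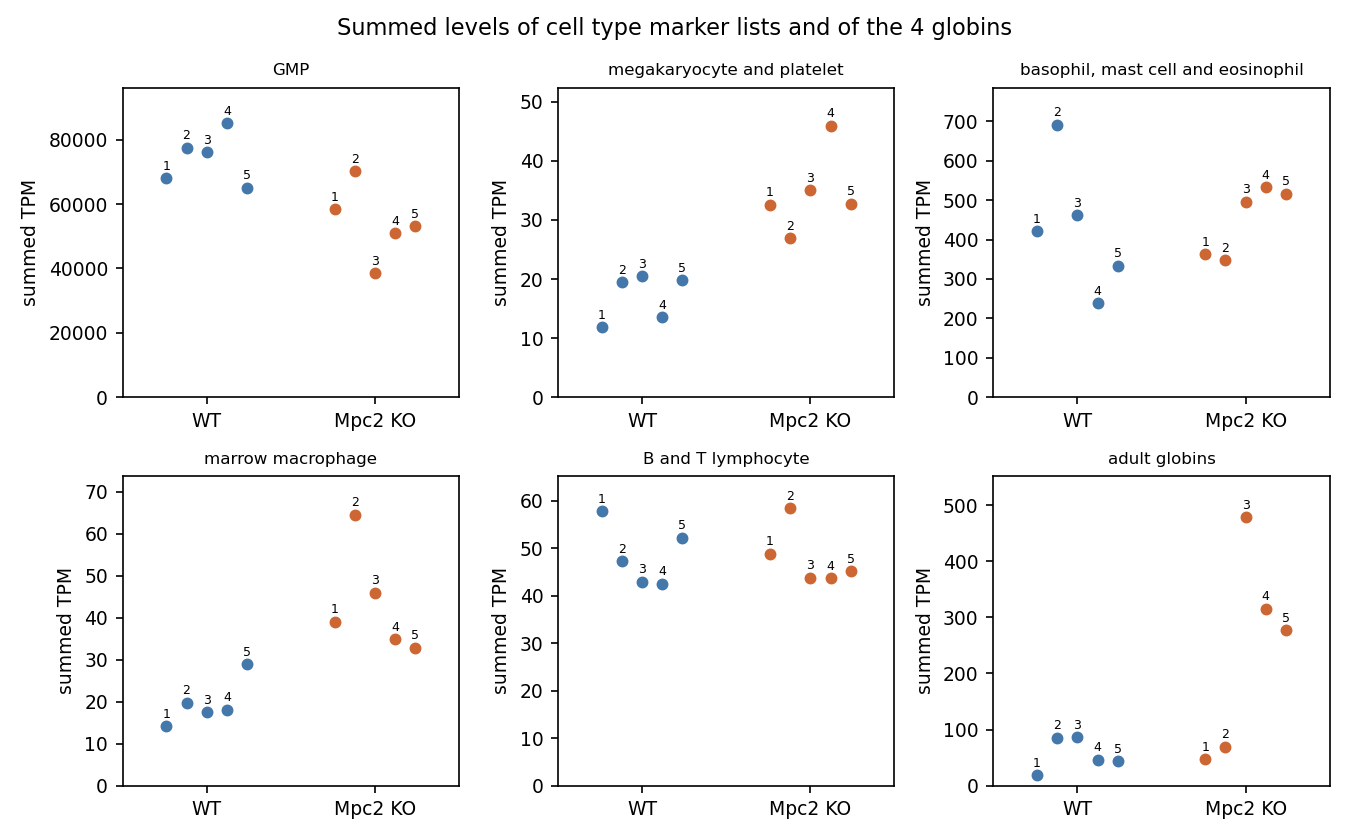
Summed TPM of 5 cell type marker lists and of the 4 adult globins in each WT and Mpc2 KO sample, numbered by replicate. Macrophage and megakaryocyte sums are higher in every KO sample than in any WT sample, whereas the globin sum is high only in KO replicates 3, 4 and 5 of these 10 samples.

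The KO samples high in globin also differed from KO replicates 1 and 2 in depth and in Mpc2. KO replicates 1 and 2 held 14655377 and 14033776 reads, and KO replicates 3 to 5 held 15839904 to 19658346. Mpc2 was 27.7 and 17.1 CPM in KO replicates 1 and 2 and 35.0 to 43.9 CPM in KO replicates 3 to 5. These values sum reads over the whole gene, so they do not measure the degree of deletion. The paper measured Mpc2 deletion by quantitative PCR of genomic DNA in marrow and spleen cells of the chimeras. Its values for RNA of the floxed exon were from GMPs after prolonged deletion, not from these samples. The part of depth, Mpc2 RNA and other cell types in the globin level was not tested, and free globin RNA and a few erythroid cells in the sort cannot be told apart in these bulk libraries.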

How the data were processed

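RNA was sequenced from sorted GMPs, 5 WT and 5 recent Mpc2 KO samples. The authors quantified transcripts with Salmon 1.5.1, and the deposited files give estimated counts and TPM per transcript, with transcript and effective lengths as other columns. Per the labels, DESeq2 2.11.40.6 was also used, and the deposited table of the authors' own comparison was not used here. Transcripts were summed per gene through GENCODE M21 (GRCm38) by identifier; 137161 of 140789 matched (97.4%), and unmatched ones held 0.348% to 0.390% of reads. The unmatched ones were not assigned to genes, so a gene's reads may be incomplete. One globin chaperone gene, Ahsp, was not analysed here. Promoter letters and motifs came from RefSeq (GRCm38.p6).

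Counts were rounded and tested with edgeR 4.0.16 in R 4.3.3 (TMM, filterByExpr with a minimum count of 10, quasi-likelihood, group only, Benjamini-Hochberg threshold 0.05), and the script was checked on simulated data. Alternatives were other normalizations, no filter, a mean count of at least 50, length offsets, robust dispersions, a replicate block, DESeq2 1.42.0, limma 3.58.1 with a TPM pseudocount of 1 or 0.1, summed globin copies and leaving out each sample. Ratios and single correlations used exact permutation. The design named 4 ratios, but Hba to Klf1 could not be formed from the matched transcript, so adjustment was over 3. It also named correlations over 10 samples, but the gap in Hba limited them to 7, a choice made after Hba was seen. Those 7 were not centred on the group means. Named genes were all 10 members, genes of the other lists with an adjusted p below 0.05 or the 3 highest in mean TPM, and the 5 genes most like Hba, Gata1 and Car2; other genes were named after their values were seen. The members and lists were chosen with earlier results of these data known. Pooling of mice in the KO group alone can change the spread within that group. Counting limits cover counting error only.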

Additional observations from a re-analysis of the deposited data

Results flagged for a closer look

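Car2 in WT replicate 4 stood apart from the other WT samples, at 26.4 CPM against 43.4 to 47.4 CPM in the other 4, from 340 reads. The same library was also the lowest WT sample in Gata1. Of 24 sets of 5 values examined for such a gap, 1 showed it, and chance gives about 1 in 20.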

How the results depend on the processing

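No member was called in any setting except edgeR without the filter on low counts, which called 6 of 10 members, and every tested member kept a positive log2 fold change in every setting. The number of genes called, 41, was 206 without the filter, 156 with DESeq2, 25 with limma at a TPM pseudocount of 1 and 24 at 0.1; leaving out single samples gave 25 to 91, with the highest number without KO replicate 2, and 0 members throughout. The causes were not tested. The replicate block gave 20 genes and 0 members; same-numbered samples correlated at -0.177 to 0.0482 in their deviations and 0 of 5 correlated best with their own number, so the numbers were not taken as pairs. In the ratios, the replicate block by exact sign-flip gave differences of 1.21 for Hba to Gata1 and 1.37 for Hba to Epor, with adjusted p = 0.188 for each, and the smallest p that test allows is 0.0625.

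Leaving out single samples gave differences of 0.76 to 1.57 for Hba to Gata1, 1.08 to 1.80 for Hba to Epor and -0.0157 to 0.199 for Hba to Hbb, the negative value without WT replicate 1. With WT replicate 4 left out, Hba to Gata1 passed the threshold narrowly (two-sided exact permutation adjusted p = 0.0476). That adjustment was over 3 ratios, where the design named 4. The correlation of Hba with Car2 turned from 0.041 to -0.00355 on log2(TPM + 0.1), and that with Klf1 from -0.42 to 0.18 with the unmatched transcript added. Low read numbers limit Klf1, Epor, Car1 and Slc4a1.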
